A study of Mus musculus with 6 samples.

Results

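The genes described are 9 markers of the SPP1-type and TREM2-type macrophages found in scarred lung: *Spp1*, *Apoe*, *Trem2*, *Tyrobp*, *Lgals3*, *Cd63*, *Cd9*, *Gpnmb* and *Fabp5*. They were chosen by symbol from a count table of 26100 gene rows. All 9 had 1 row each and all 9 were among the 16633 rows that passed the filter on low counts. RNA came from whole lung of 3 mice with a *Clec7a* knockout (KO) and 3 wild-type mice (WT), and both groups had received bleomycin into the trachea 14 days earlier. *Clec7a* encodes dectin-1, a receptor of myeloid cells for fungal beta-glucan, and bleomycin breaks DNA and is used in mice to bring on lung scarring. The labels give no strain, age, sex or bleomycin dose, nor how the knockout was made. Lungs without bleomycin were not analysed here. The tissue was not sorted, so fewer cells of a type and less RNA per cell cannot be told apart, and none of the counts can be assigned to macrophages alone.

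Scar-associated macrophages arise largely from recruited monocytes and collect in fibrotic niches beside fibroblasts. They take up lipid and cell debris, and TREM2, a lipid-sensing surface receptor, signals in them through the adaptor TYROBP (DAP12). Their secreted products include osteopontin, encoded by *Spp1*, which binds integrins and CD44 on neighbouring cells. The remaining markers include proteins of lysosomes, membranes and lipid transport, and other lung cells make them as well, among them alveolar macrophages and epithelium.

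The promoters of 4 of these genes are shown because *Spp1* and *Apoe* had groups that did not overlap, *Trem2* is the receptor that marks these cells, and the groups of *Gpnmb* were interleaved. Each window runs from 250 bases before to 50 bases after a RefSeq gene start, 5′ to 3′ on the gene's strand (RefSeq, GRCm38.p6). Capitals mark matches, on either strand, to 4 motifs: CACGTG and TCATGTG of the MITF and TFE factors, TGANTCA of AP-1 and GAGGAA, a core of PU.1 sites. The windows are chr5:104434861-104435160 (plus strand) for *Spp1*, chr7:19699139-19699438 (minus strand) for *Apoe*, chr17:48346151-48346450 (plus strand) for *Trem2* and chr6:49036268-49036567 (plus strand) for *Gpnmb*.
Spp1: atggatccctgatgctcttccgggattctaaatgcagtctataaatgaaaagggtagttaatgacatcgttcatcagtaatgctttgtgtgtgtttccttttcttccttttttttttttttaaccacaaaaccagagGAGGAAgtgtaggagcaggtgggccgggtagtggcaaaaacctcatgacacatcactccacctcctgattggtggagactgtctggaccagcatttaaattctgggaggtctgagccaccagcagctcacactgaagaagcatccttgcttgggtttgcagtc
Apoe: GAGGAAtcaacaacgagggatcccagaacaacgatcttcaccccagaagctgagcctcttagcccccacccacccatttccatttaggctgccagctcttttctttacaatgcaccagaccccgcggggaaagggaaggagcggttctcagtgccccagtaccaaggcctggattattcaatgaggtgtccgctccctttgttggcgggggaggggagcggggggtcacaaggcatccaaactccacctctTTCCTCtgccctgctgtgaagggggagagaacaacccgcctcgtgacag
Trem2: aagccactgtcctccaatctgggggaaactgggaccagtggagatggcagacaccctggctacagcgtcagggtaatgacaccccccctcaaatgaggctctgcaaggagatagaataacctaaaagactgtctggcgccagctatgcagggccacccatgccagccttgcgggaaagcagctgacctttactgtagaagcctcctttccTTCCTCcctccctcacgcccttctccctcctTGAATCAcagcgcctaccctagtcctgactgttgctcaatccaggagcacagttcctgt
Gpnmb: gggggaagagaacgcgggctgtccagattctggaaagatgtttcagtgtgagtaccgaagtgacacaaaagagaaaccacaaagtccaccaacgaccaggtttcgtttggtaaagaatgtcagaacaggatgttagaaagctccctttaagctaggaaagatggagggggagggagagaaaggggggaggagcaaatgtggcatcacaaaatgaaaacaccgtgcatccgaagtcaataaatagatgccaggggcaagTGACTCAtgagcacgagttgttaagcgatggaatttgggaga

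GAGGAA or its complement was found in the *Spp1*, *Apoe* and *Trem2* windows, and 28.3% of all 32851 promoter windows in the RefSeq table hold it. TGANTCA was found in the *Trem2* and *Gpnmb* windows, against 7.81% of all windows. CACGTG, present in 7.15% of all windows, and TCATGTG, in 3.77%, were in none of the 7 member windows read, 1 per gene. The RefSeq table holds 2 windows for *Spp1* and 3 for *Apoe*, and their other windows are not described here. These matches describe letters and not binding. The motifs do not overlap each other in these windows.

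The knockout was read first. *Clec7a* had 3.60, 6.85 and 2.84 CPM (counts scaled to library size with TMM factors) in the KO libraries and 60.6, 84.0 and 197 CPM in the WT libraries. Every KO library was therefore below every WT library, with a log2 fold change of -4.68 ± 0.61 (SE). The libraries held 31052936 to 34451956 counts, so for genes as abundant as these 9 the spread between mice was far larger than counting error. Nothing in the labels gives an extraction or sequencing batch.

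**Figure D1:**
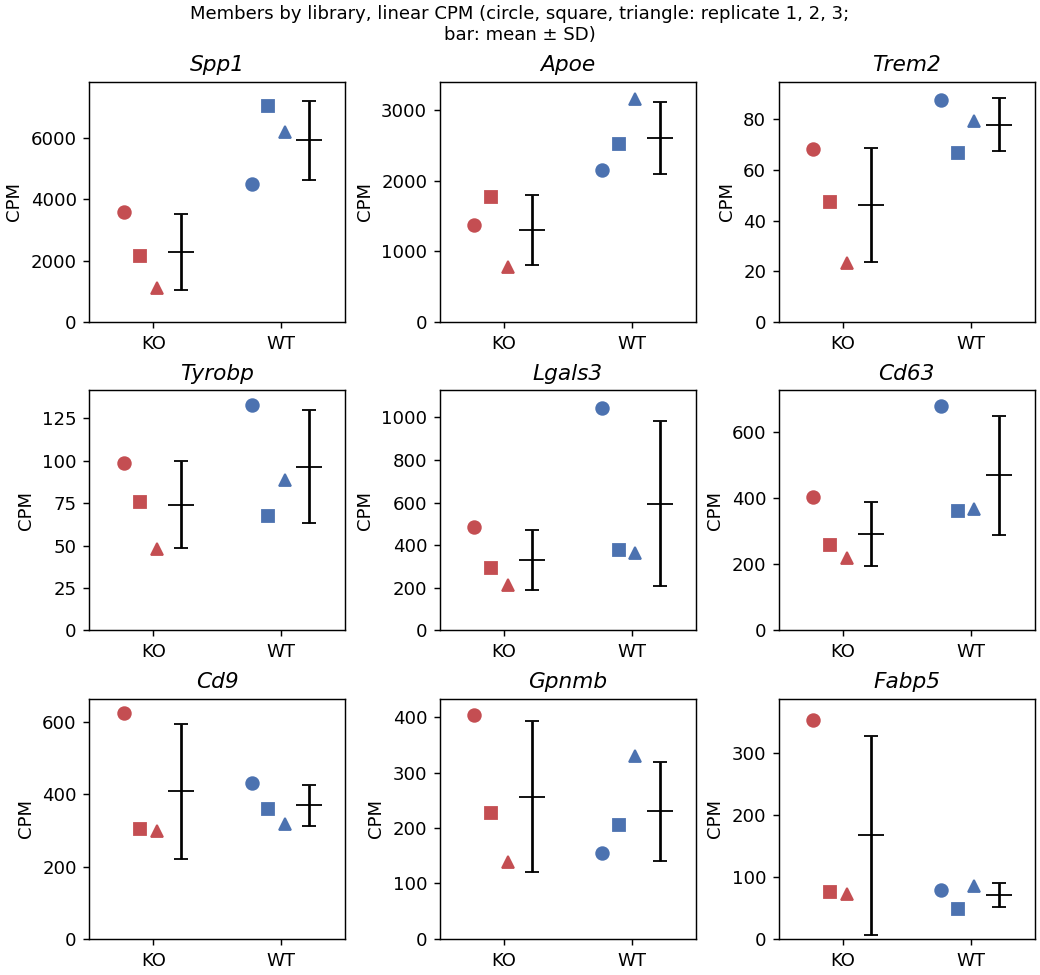
Level of each of the 9 genes in each library, in CPM on a linear axis that starts at 0. Points are the 3 KO libraries (left) and the 3 WT libraries (right), and the bar beside them is the mean ± SD. *Spp1* and *Apoe* are the 2 genes whose groups do not overlap.

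None of the 9 genes passed the test between genotypes. edgeR's quasi-likelihood test, with p-values adjusted by Benjamini-Hochberg over all 16633 genes, called 0% of them higher and 0% lower in KO at 0.05. The smallest adjusted p of any gene was 0.203. *Clec7a* had that value too, so the knocked-out gene itself did not pass. At an unadjusted p under 0.05 there were 2 members, *Spp1* and *Apoe*, both lower in KO, and 5.89% of all genes were lower at that level. The same 2 members had all KO values below all WT values, as did 11.3% of all genes tested. No member was higher in KO at an unadjusted p under 0.05, against 5.95% of all genes, and none lay wholly above WT, against 9.81%. The fold changes were negative for 6 members and positive for 3, with a median log2 fold change (KO minus WT) of -0.68, while the median over all genes was -0.01. DESeq2, which called 1.91% of its 18630 tested genes higher and 1.73% lower, called 0 of the 9. It did call *Clec7a* (DESeq2 adjusted p 1.52e-14).

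Levels between genes are compared per length, in the authors' FPKM. In WT lungs *Spp1* was highest at 3884 ± 976 FPKM (SD, n = 3), and its lowest library, 2797, lay above the highest *Apoe* value of 2217. *Apoe* followed at 1785 ± 416 FPKM in WT. *Cd63* (410 ± 139), *Lgals3* (406 ± 244) and *Cd9* (282 ± 31.9) came next in WT. The *Lgals3* range overlapped both of the others, while the lowest *Cd63* library, 327, lay just above the highest *Cd9* library, 315. *Tyrobp* stood at 157 ± 48.5 FPKM in WT, and *Trem2* (67.7 ± 7.13), *Fabp5* (67.7 ± 18.8) and *Gpnmb* (59.7 ± 25.2) were lowest, without a separation between these 3. KO lungs had the same 2 genes on top, *Spp1* at 1550 ± 814 and *Apoe* at 931 ± 362 FPKM, and there the ranges of the 2 genes overlapped. *Trem2* was last in KO at 42.0 ± 19.8 FPKM.

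*Spp1* lies on chromosome 5 (GRCm38, 104435118 to 104441050, plus strand, protein coding) and encodes osteopontin, a secreted phosphoprotein that binds integrins through an Arg-Gly-Asp motif. It had 3579, 2166 and 1108 CPM in KO replicates 1, 2 and 3, against 4514, 7057 and 6209 CPM in WT replicates 1, 2 and 3. These values rest on 35934 to 113315 counts in KO and 146994 to 229610 in WT. All KO libraries were below all WT libraries, with KO replicate 3 lowest. *Spp1* took 0.116% to 0.352% of all counts in KO libraries and 0.438% to 0.692% in WT libraries. The means were 2284 ± 1240 CPM in KO and 5927 ± 1295 CPM in WT (SD, n = 3 each), 2.59-fold lower in KO. The edgeR log2 fold change was -1.38 ± 0.49 (SE), with an unadjusted p of 0.0274 and an adjusted p of 0.363 over all genes. Its body overlaps a same-strand model without a row in the count table. DESeq2 gave *Spp1* an adjusted p of 0.0691, within a range of 0.0660 to 0.815 over the 17 alternatives.

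*Apoe* (chromosome 7, 19696109 to 19699188, minus strand) encodes apolipoprotein E, a secreted lipid carrier and a ligand of TREM2. It had 1375, 1767 and 778 CPM in KO replicates 1, 2 and 3 and 2154, 2518 and 3164 CPM in the WT replicates. The groups again did not overlap, with KO replicate 3 lowest and WT replicate 3 highest. The means were 1307 ± 498 CPM in KO and 2612 ± 511 CPM in WT, and the log2 fold change was -0.999 ± 0.376 (edgeR unadjusted p 0.0347, adjusted p 0.387). Over the alternatives the adjusted p ranged from 0.129 to 0.815. *Spp1* and *Apoe* together made up 65.1% to 75.4% of the summed CPM of the 9 genes in KO and 71.9% to 86.6% in WT. The sum of all 9 was 2895 to 7388 CPM in KO and 9273 to 11062 CPM in WT, without overlap. For the other 7 genes alone the sum was 1009 to 2434 CPM in KO and 1487 to 2605 CPM in WT, and the groups overlapped.

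*Trem2* (chromosome 17, 48346401 to 48354147, plus strand), the receptor, had 68.0, 47.1 and 23.3 CPM in KO replicates 1 to 3 and 87.4, 66.7 and 79.1 CPM in WT replicates 1 to 3. KO replicate 1 was just above WT replicate 2, so the groups overlapped by 1 pair of libraries. The means were 46.2 ± 22.4 CPM in KO and 77.7 ± 10.4 CPM in WT, with a log2 fold change of -0.75 ± 0.38 (edgeR unadjusted p 0.0914, adjusted p 0.498). It was -1.14 without KO replicate 1 and -0.43 without KO replicate 3.

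*Tyrobp* (chromosome 7, 30413760 to 30417585, plus strand), the adaptor through which TREM2 signals, had 98.9, 75.7 and 47.8 CPM in KO libraries and 133, 67.7 and 88.7 CPM in WT libraries. KO replicates 1 and 2 both exceeded WT replicate 2. The log2 fold change was -0.38 ± 0.35 (edgeR unadjusted p 0.320, adjusted p 0.725), and it was -0.08 without WT replicate 1. As a description per length, the ratio of *Trem2* to *Tyrobp* FPKM was 0.259, 0.331 and 0.366 in KO libraries, ordered low to high, and 0.346, 0.473 and 0.527 in WT libraries. The highest KO ratio was above the lowest WT ratio.

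*Lgals3* (chromosome 14, 47367751 to 47386160, plus strand) encodes galectin-3, a secreted lectin that binds galactosides and is also made by injured alveolar epithelium. It had 484, 294 and 211 CPM in KO replicates 1 to 3 and 1041, 377 and 365 CPM in WT replicates 1 to 3. WT replicate 1 was more than any other library, and KO replicate 1 exceeded the 2 remaining WT libraries. The log2 fold change was -0.85 ± 0.52 (edgeR unadjusted p 0.151, adjusted p 0.575) and became -0.17 without WT replicate 1. That library was also the highest for the transitional epithelium markers, at 3098 summed CPM, with 1048 and 713 in WT replicates 2 and 3 and 805 to 1432 in KO libraries. The part of those cells in the *Lgals3* value was not tested.

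The 2 tetraspanins of the list, membrane proteins of vesicles and lysosomes, did not share 1 pattern. *Cd63* (chromosome 10, 128900989 to 128912822, plus strand) had 401, 258 and 218 CPM in KO and 676, 362 and 366 CPM in WT, with replicate 1 highest in both groups. Its log2 fold change was -0.68 ± 0.36 (edgeR unadjusted p 0.108, adjusted p 0.520), and -0.32 without WT replicate 1. *Cd9* (chromosome 6, 125460266 to 125494791, minus strand) had 624, 304 and 298 CPM in KO and 431, 360 and 319 CPM in WT. KO replicates 2 and 3 were below all WT libraries and KO replicate 1 was above them. The log2 fold change of *Cd9* was 0.14 ± 0.35 (edgeR unadjusted p 0.691, adjusted p 0.913), and -0.30 without KO replicate 1. *Cd9* lies 3966800 bases from *Clec7a* on the same chromosome, and its body overlaps 2 annotated non-coding genes on the opposite strand that have no row in the count table. Whether counting used strand is not given in the sources used here, so reads of such partners cannot be told from its own.

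*Gpnmb* and *Fabp5* had the positive fold changes along with *Cd9*, and KO replicate 1 was the highest of all 6 libraries for these 3 genes. *Gpnmb* (chromosome 6, 49036546 to 49070929, plus strand) encodes a transmembrane glycoprotein of the late endosome that rises in lipid-laden macrophages. It had 405, 226 and 139 CPM in KO and 156, 205 and 329 CPM in WT, and the 2 groups were interleaved. Its log2 fold change was 0.16 ± 0.46 (edgeR unadjusted p 0.742, adjusted p 0.928), and -0.33 without KO replicate 1. *Fabp5* (chromosome 3, 10012548 to 10016607, plus strand), a cytosolic fatty acid carrier, had 353, 76.5 and 72.6 CPM in KO and 79.8, 48.3 and 85.3 CPM in WT. Apart from KO replicate 1 the libraries of both genotypes lay between 48.3 and 85.3 CPM. The log2 fold change was 1.23 ± 0.67 (edgeR unadjusted p 0.109, adjusted p 0.522) with KO replicate 1 and 0.07 without it. A processed pseudogene copy, *Fabp5l2*, is annotated elsewhere, so the split of reads between the copies is uncertain.

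**Figure D2:**
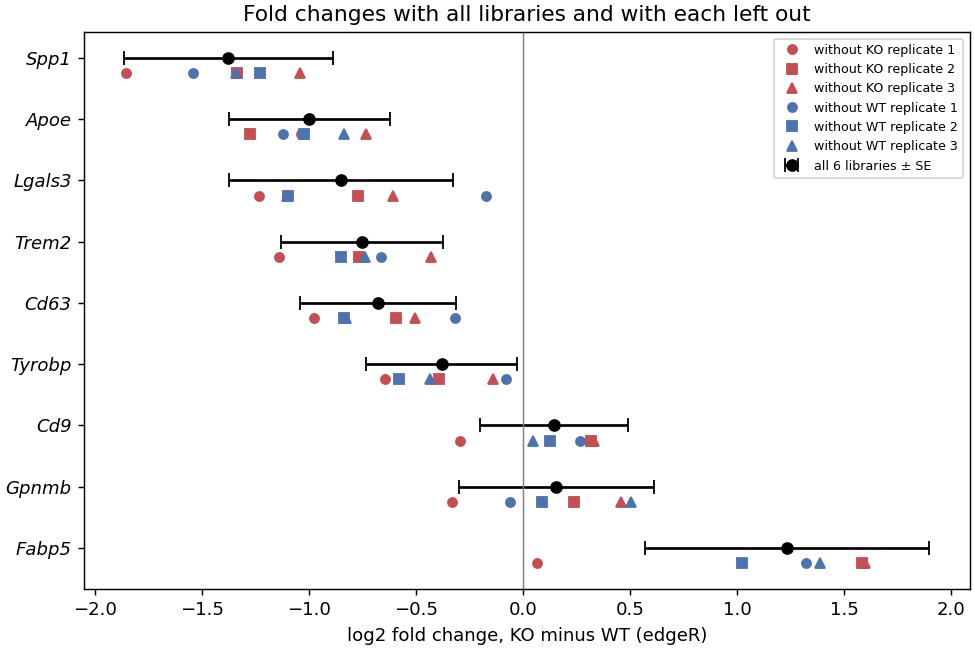
edgeR log2 fold changes (KO minus WT) of the 9 genes. Black points with bars are the values from all 6 libraries ± SE, and the symbols under them leave out 1 library each (red for KO, blue for WT). *Spp1* stays between -1.86 and -1.04 and *Apoe* between -1.28 and -0.73, while *Fabp5* is 0.07 without KO replicate 1.

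Across libraries the 9 genes did not share 1 profile. KO replicate 3 was the lowest KO library for all 9, and KO replicate 1 was the highest for 8, the exception being *Apoe*. In WT, replicate 1 was highest for 5 genes, replicate 2 for 1 and replicate 3 for 3. On log2 CPM centred on the mean of the 6 libraries, the nearest pairs were *Cd63* with *Tyrobp* (root mean square difference 0.22) and *Lgals3* with *Cd63* (0.22). *Trem2* was 0.33 from its adaptor *Tyrobp* and 0.36 from *Apoe*, and *Spp1* was 0.43 from *Apoe* and 0.44 from *Trem2*. The farthest pair was *Spp1* with *Fabp5*, at 1.32.

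**Figure D3:**
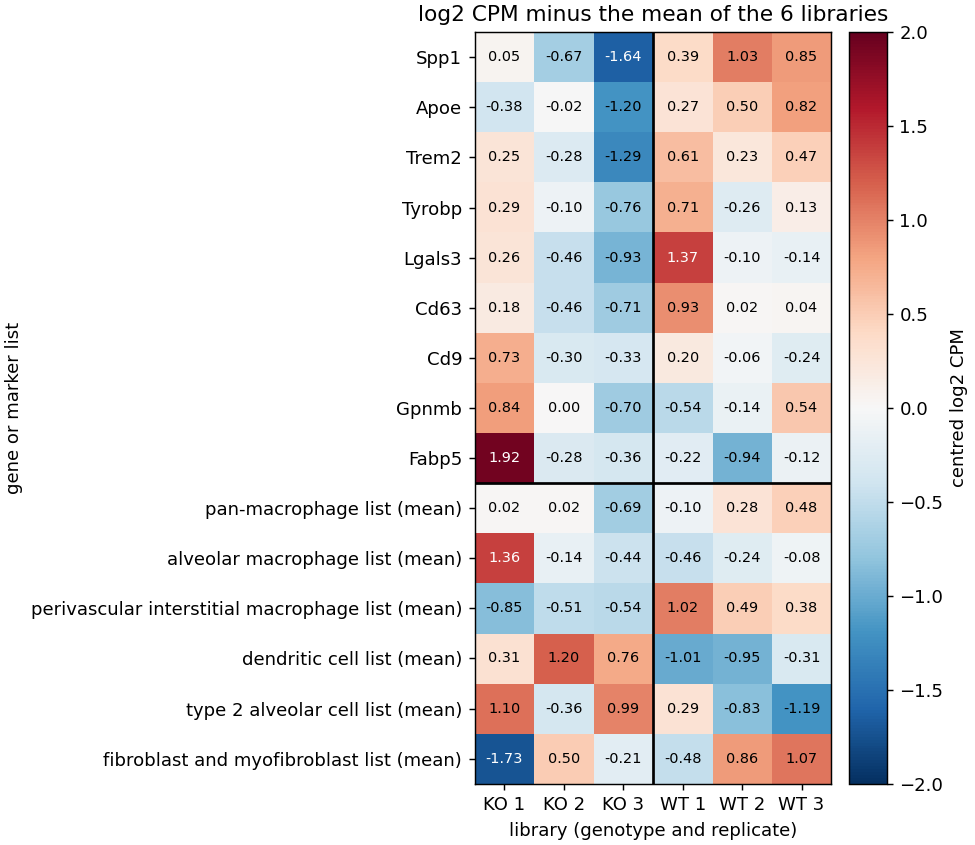
Level of each of the 9 genes (above the line) and the mean of 6 marker lists (below it) in each library, as log2 CPM minus the mean of the 6 libraries. KO libraries are left and WT libraries right. KO replicate 1 holds 1.92 for *Fabp5* and 1.36 for the alveolar macrophage list, and KO replicate 3 holds -1.64 for *Spp1*.

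The 9 genes were then set against 12 general macrophage genes, by subtracting the mean log2 CPM of that list in each library. *Spp1* stood 5.07, 4.34 and 4.09 log2 units above the list in KO libraries and 5.53, 5.79 and 5.41 units above it in WT libraries. The groups did not overlap, and the KO minus WT difference was -1.08 (2-sided exact permutation test p = 0.1). *Apoe* stood 3.69, 4.05 and 3.58 units above the list in KO and 4.46, 4.30 and 4.44 in WT, a difference of -0.63 with the same p of 0.1 and no overlap. With 3 libraries against 3, 0.1 is the smallest p the exact test allows, and 9 such tests were made. *Trem2* differed by -0.44 (exact permutation p = 0.3), *Lgals3* by -0.32 (0.9), *Cd63* by -0.23 (0.8) and *Tyrobp* by 0.05 (1). *Gpnmb* (0.52), *Cd9* (0.50) and *Fabp5* (1.29) had positive differences, with exact permutation p of 0.3, 0.2 and 0.2. The mean over all 9 genes was 1.58 ± 0.40 log2 units above the list in KO and 1.61 ± 0.43 in WT (SD, n = 3 each). With the summed CPM of the list in place of its mean log2 CPM, the KO minus WT difference of the mean over the 9 genes was -1.26, against -0.04 before. With that sum the *Spp1* difference was -2.30, and *Gpnmb*, *Cd9* and *Tyrobp* turned to -0.70, -0.72 and -1.18. Without WT replicate 1 the *Lgals3* and *Cd63* differences turned to 0.34 and 0.23. *Lyz2*, the lysozyme gene, makes up most of that sum, with 18786 CPM in KO replicate 1, 6331 and 4023 in KO replicates 2 and 3 and 3476 to 4280 in WT. KO replicate 1 was also the highest library for the type 2 alveolar cell markers (19395 summed CPM) and the alveolar macrophage markers (2239). The part of those cells in the *Lyz2* value was not tested.

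**Figure D4:**
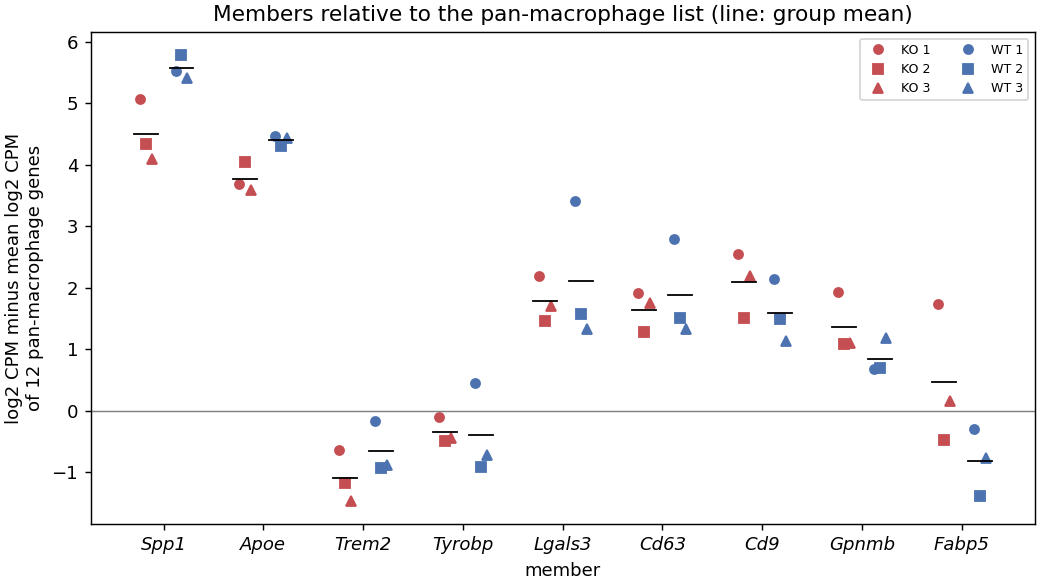
Each of the 9 genes relative to 12 general macrophage genes, as log2 CPM minus the mean log2 CPM of the list. Red symbols (left of each pair) are the KO libraries, blue symbols the WT libraries, and the line is the group mean. *Spp1* and *Apoe* are the 2 genes whose red and blue symbols do not overlap.

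General macrophage genes themselves were split. Of the 12, 10 had lower estimates in KO and 2 higher, with a median log2 fold change of -0.27. There were 4 with an unadjusted p under 0.05, all lower, against 5.89% of all genes. After adjustment 0 passed edgeR, while DESeq2 called 3 lower and 0 higher, against 1.73% and 1.91% of its tested genes. *C5ar1*, the complement C5a receptor gene, had 23.7, 21.6 and 15.0 CPM in KO and 36.6, 49.0 and 47.2 CPM in WT (log2 fold change -1.14 ± 0.24, edgeR adjusted p 0.230) and was 1 of the 3 (DESeq2 adjusted p 0.00787). *Lyz2* had a log2 fold change of 1.35 ± 0.61, and 0.44 without KO replicate 1. All 12 were detected in every library, and their summed level was 4691 to 19727 CPM in KO and 4468 to 5835 CPM in WT.

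Other genes of the same macrophage state were mixed. Of 18 listed companions 17 were tested, 9 with higher and 8 with lower estimates and a median of 0.22, and 0 passed edgeR after adjustment. At an unadjusted p under 0.05, 2 were higher and 2 lower, against 5.95% and 5.89% of all genes. DESeq2 called 1 higher and 2 lower, against 1.91% and 1.73% of its tested genes. The arginase gene *Arg1* had 66.6, 22.9 and 15.5 CPM in KO and 818, 681 and 443 CPM in WT, a log2 fold change of -4.21 ± 0.64 (edgeR adjusted p 0.203). DESeq2 called it, and edgeR called it without both replicate 1 libraries (adjusted p 0.0432), an alternative chosen after seeing the data. *Mmp12*, the macrophage elastase gene, had 146, 465 and 93.3 CPM in KO and 11.7, 26.9 and 77.3 CPM in WT (2.60 ± 0.88, edgeR adjusted p 0.344). DESeq2 called *Mmp12* as well (adjusted p 0.0213), and the log2 fold change was 1.63 without KO replicate 2. Its KO libraries were all above its WT libraries, so 2 genes usually named with *Spp1* in this state stood on opposite sides.

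Genes listed around TREM2 and TYROBP had a median log2 fold change of -0.07 over 17 genes, 7 higher and 10 lower. The list holds signalling genes and also *Adam10*, *Adam17*, *Clu* and MS4A genes. At an unadjusted p under 0.05 there were 2, both lower, against 5.89% of all genes. These 2 were *Ms4a4a* and *Ms4a6d*, macrophage membrane genes of a family linked to soluble TREM2 in humans, so no signalling gene was among them. *Ms4a4a* had 7.11, 10.6 and 5.77 CPM in KO and 51.2, 44.0 and 31.7 CPM in WT (-2.44 ± 0.31, edgeR adjusted p 0.203), and DESeq2 called it. *Adam17*, whose protease sheds TREM2 from the surface, had a log2 fold change of 0.38 ± 0.27, the smallest p among the higher ones, and 0.16 without WT replicate 1. Of 10 other receptors that use TYROBP, 5 were higher and 5 lower, with a median of -0.06. *Siglech*, a receptor gene of plasmacytoid dendritic cells, was at 4.46 ± 0.91 CPM in KO and 1.45 ± 1.16 CPM in WT (1.62 ± 0.63), and *Trem3* was at 0.81 ± 0.16 CPM in KO and 1.79 ± 0.58 CPM in WT (-1.14 ± 0.42).

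Of 10 receptors for osteopontin, 7 had lower and 3 higher estimates, with a median of -0.22. At an unadjusted p under 0.05 there were 3, all lower, against 5.89% of all genes. The integrin gene *Itgb3* had 36.0, 37.2 and 39.6 CPM in KO and 82.8, 78.1 and 53.6 CPM in WT, without overlap (-0.93 ± 0.21, edgeR adjusted p 0.234). DESeq2 called *Itgb3* (adjusted p 0.0221). *Itgb6*, an epithelial integrin gene, had the smallest p among the higher ones, with 183, 38.6 and 64.3 CPM in KO and 70.3, 39.8 and 28.4 CPM in WT (1.04 ± 0.63). KO replicate 1 was highest, and the log2 fold change was 0.16 without it.

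Lipid-handling genes had a median of 0.06 over 18. At an unadjusted p under 0.05, 3 were higher and 2 lower, against 5.95% and 5.89% of all genes. *Nr1h3*, which encodes the oxysterol receptor LXR-alpha, had 38.8, 37.4 and 38.9 CPM in KO and 20.5, 21.1 and 24.5 CPM in WT (0.80 ± 0.16, edgeR adjusted p 0.216). *Apoc2*, in the same apolipoprotein cluster as *Apoe*, had 5.05, 3.07 and 2.25 CPM in KO and 15.0, 8.88 and 8.11 CPM in WT (-1.62 ± 0.42). The groups did not overlap for either gene, and DESeq2 called both.

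Lysosomal genes and their MITF and TFE regulators had a median of -0.05 over 17. At an unadjusted p under 0.05, 0 were higher and 3 lower, against 5.95% and 5.89% of all genes. *Lgmn*, the lysosomal protease legumain, had 321, 365 and 313 CPM in KO and 561, 693 and 720 CPM in WT (-0.98 ± 0.21, edgeR adjusted p 0.232, called by DESeq2). *Atp6v0d2*, a proton pump subunit gene of alveolar macrophages and osteoclasts, had 287, 103 and 55.2 CPM in KO and 53.8, 62.3 and 74.2 CPM in WT (1.23 ± 0.58, and 0.32 without KO replicate 1). KO replicate 1 was highest for it, as for *Gpnmb* and *Fabp5*.

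Genes of the CSF1, GM-CSF and related axes had a median of -0.05 over 9 genes. *Il17a*, a cytokine gene, had 0.51, 1.46 and 0.43 CPM in KO and 0, 0.25 and 0.06 CPM in WT, levels at which counting error is large. *Il34*, a ligand of the CSF1 receptor, had a log2 fold change of -0.25 ± 0.22. Among 25 paralogues of the 9 genes 22 were tested, 7 higher and 15 lower, with a median of -0.39. At an unadjusted p under 0.05, 5 were lower and 0 higher, against 5.89% and 5.95% of all genes. The tetraspanin gene *Tspan4* had 67.4, 57.5 and 65.4 CPM in KO and 153, 123 and 109 CPM in WT (-1.02 ± 0.19, edgeR adjusted p 0.203, called by DESeq2). *Treml4* was at 3.65 ± 1.73 CPM in KO and 1.01 ± 0.84 CPM in WT (1.84 ± 0.86).

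**Figure D5:**
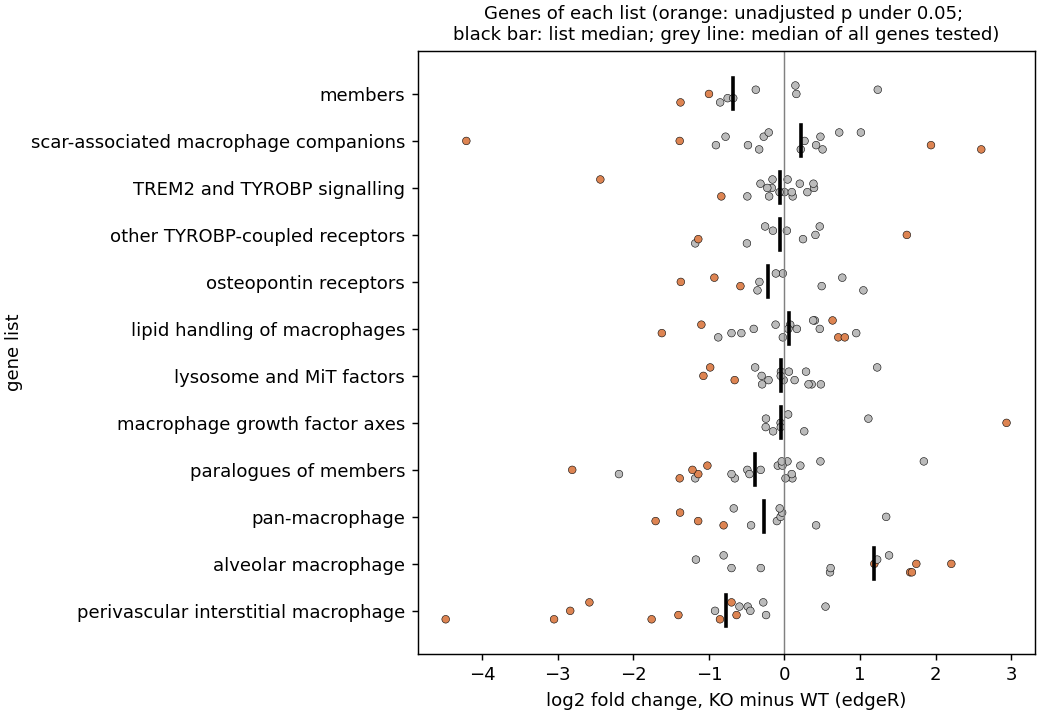
edgeR log2 fold changes (KO minus WT) of the genes of 12 lists. Each point is a gene, orange where its unadjusted p was under 0.05, the black bar is the list's median and the grey line the median of all genes tested (-0.01). The 9 genes have a median of -0.68, alveolar macrophage genes 1.19 and perivascular macrophage genes -0.78.

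Markers of other macrophage types had estimates in different directions. Of 13 tested alveolar macrophage genes, 9 were higher and 4 lower in KO (median 1.19). At an unadjusted p under 0.05 there were 5, all higher, against 5.95% of all genes. The mean of the list was highest in KO replicate 1, with a centred log2 CPM of 1.36, the library in which *Fabp5*, *Gpnmb* and *Cd9* were highest. Without KO replicate 1 the median of this list was 0.16. The carbonic anhydrase gene *Car4*, also counted among the endothelial markers below, had a log2 fold change of 1.19 ± 0.27 and was called by DESeq2. Its value is the median of the alveolar list, and it was 1.01 without KO replicate 1. *Chil3*, the most abundant of the list, had 1140, 392 and 325 CPM in KO and 1368, 1790 and 1026 CPM in WT (-1.17 ± 0.54, and -1.96 without KO replicate 1). Summed over the 14 genes the level was 631 to 2239 CPM in KO and 1362 to 2108 CPM in WT. *Fabp1* was at 0 in WT replicates 1 and 2. The part of alveolar macrophages in the level of *Fabp5* was not tested.

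Of 16 perivascular interstitial macrophage genes 15 were lower in KO (median -0.78). At an unadjusted p under 0.05 there were 9, all lower, against 5.89% of all genes. Wholly below WT there were 11, against 11.3% of all genes. *F13a1*, a coagulation factor gene of these cells, had 83.7, 59.3 and 57.1 CPM in KO and 471, 441 and 285 CPM in WT (-2.58 ± 0.29), and DESeq2 called it. *Cbr2*, highest by a small margin on the mean of the 6 libraries, is also an airway gene and had 402, 208 and 532 CPM in KO and 625, 94.7 and 64.5 CPM in WT. Its log2 fold change was 0.54 ± 0.88, and 2.26 without WT replicate 1. The summed level of the list was 1975 to 2048 CPM in KO and 2714 to 3726 CPM in WT, without overlap, as for *Spp1* and *Apoe*. The part of these cells in the levels of *Spp1* and *Apoe* was not tested.

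Markers of further cell types were read in the same way, and their medians do not measure cell numbers. Median log2 fold changes were 0.26 for 9 monocyte genes, 1.15 for 9 dendritic cell genes, -0.24 for 9 genes of osteoclast-type giant cells and -0.64 for 9 tested neutrophil genes. They were 0.42 for 4 tested mast cell genes, -0.10 for 4 tested platelet genes and 0.40 for 7 endothelial genes. Epithelial medians were 0.86 (10 type 2 alveolar genes), 0.42 (7 type 1 alveolar genes), -0.60 (8 transitional genes) and -0.12 (8 airway genes). Of these, the type 1 median was -0.12 without KO replicate 1, and without WT replicate 1 the transitional median was 0.53 and the airway median 2.35. All 10 fibroblast and myofibroblast genes had lower estimates in KO (median -0.73), with summed levels of 2557 to 14767 CPM in KO and 5835 to 23142 CPM in WT. All 9 dendritic cell, 10 type 2 and 7 type 1 alveolar genes had higher estimates. At an unadjusted p under 0.05, 5, 2 and 1 of these were higher, against 5.95% of all genes. At that level 1 fibroblast and myofibroblast gene was lower, against 5.89% of all genes. Type 2 alveolar genes summed to 3670 to 19395 CPM in KO and 2037 to 10159 CPM in WT, so lung epithelium was present in all 6 libraries.

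The genes with profiles nearest to *Spp1* over the 6 libraries were *Myoz1* (root mean square difference of centred log2 CPM 0.20), *Acot4* (0.21) and *Lipn* (0.21), all of them at 2.28 CPM or less in every library. *Apoe* was at place 34 and *Trem2* at place 37 in that order. Nearest to *Trem2* were *Cdkn3* (0.09), *Gins2* (0.15) and *Tmem86a* (0.15), with *Tyrobp* at place 102. Nearest to *Gpnmb* were *Slc7a11* (0.17), the cystine transporter gene, *Zfp992* (0.18) and *Cd84* (0.18), a receptor gene of leukocytes. The nearest member to *Gpnmb* was *Cd9*, at place 1475.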

How the data were processed

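RNA-seq was run on whole lung of 6 mice (3 KO, 3 WT). The labels' protocols name TRIzol for extraction and an NEBNext Ultra kit for the libraries. The authors deposited raw counts per gene and, in a second table, FPKM values. The submitters' processing notes list HISAT2 2.0.4, StringTie 1.3.4d and GRCm38 but no role or counting setting. In the FPKM table the KO columns have an unexplained suffix, so they were read as KO without a replicate number. The series text counts 3 mice per genotype, so p-values rest on the spread between mice.

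edgeR (4.0.16, R 4.3.3) was run on all counts with filterByExpr, TMM scaling and a quasi-likelihood model (robust) of genotype, 2-sided, with Benjamini-Hochberg adjustment over 16633 rows at 0.05. SE was obtained as the size of the log2 fold change divided by the root of its F statistic. Log2 CPM used a prior count of 2. Scripts were tested on simulated data. Alternatives were DESeq2 (1.42.0), limma-voom (3.58.1), other scaling and filters, a replicate block, limma on log2(FPKM + 1) and log2(FPKM + 0.1), and leaving out each library; leaving out both replicate 1 libraries was added after seeing the data. Exact permutation tests used scipy 1.17.1. Coordinates are from GENCODE M21 (GRCm38).

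The 9 members and all lists were chosen with earlier results of these data known. The rule for named genes allowed, per pathway list, the most abundant members and those of smallest p in each direction, of which the text gives the latter. For the macrophage lists it gives the most abundant and the one of smallest p. Nearest profiles exclude predicted models.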

Additional observations from a re-analysis of the deposited data

How the results depend on the processing

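No alternative called any of the 9 genes (adjusted p 0.0660 or more in each). Genes called over the whole table numbered 0 higher and 0 lower with edgeR, 356 and 322 with DESeq2, and 18 and 28 without both replicate 1 libraries. Leaving out 1 library gave 0 to 1 higher and 0 to 2 lower. The replicate block called 0 and gave -1.52 for *Spp1* and -1.05 for *Apoe* (edgeR unadjusted p 0.0294 and 0.0405). With the block, *Cd63* (-0.66), *Lgals3* (-0.75) and *Trem2* (-0.87) were also under 0.05 unadjusted (edgeR p 0.00443, 0.0118 and 0.0474). Their adjusted p were 0.151, 0.173 and 0.241. Without both replicate 1 libraries the same genes were under 0.05 unadjusted. The share of all genes under that level in these fits is not given here. Deviations of same-numbered libraries from their group means had r of 0.35, 0.35 and -0.10 over genes for replicates 1, 2 and 3. The highest r of each KO library with a WT library of another number was -0.26, 0.47 and 0.11. With 3 libraries per group these values cannot tell whether the numbers pair the mice. Of the log2 fold changes of the 9 genes under alternatives, 148 kept their sign and side of the threshold and 5 turned. *Gpnmb* ranged from -0.33 to 0.51 with 1 library left out and was -0.54 without both replicate 1 libraries. *Cd9* ranged from -0.30 to 0.33 and was -0.16 without both. *Slc7a11* ranged from -0.054 (without KO replicate 1) to 0.518 and was -0.230 without both. *Zfp992* was -0.017 with limma-voom, ranged from -0.384 (without KO replicate 1) to 0.519 with 1 library left out and was -0.517 without both. *Cd84* ranged from -0.263 (without KO replicate 1) to 0.401, with -0.081 without WT replicate 1, and was -0.425 without both. The cause was not tested.

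Relative to the summed CPM of the general macrophage genes, the mean of the 9 was -1.26, *Gpnmb* -0.70, *Cd9* -0.72 and *Tyrobp* -1.18. Relative to *Csf1r* alone *Tyrobp* was -0.34. With 1 library left out, the relative difference ranged from -0.21 to 0.47 for *Tyrobp*, from -0.71 to 0.34 for *Lgals3* and from -0.50 to 0.23 for *Cd63*. Without both replicate 1 libraries it was 0.14 for *Lgals3* and 0.095 for *Cd63*. With 1 library left out, list medians crossed 0 for companions (lowest -0.073), other TYROBP-coupled receptors (highest 0.21), lipid handling (lowest -0.069), lysosome (highest 0.061), growth factor axes (highest 0.21), monocytes (lowest -0.0015), osteoclast-type cells (highest 0.084), platelets (highest 0.35), and the type 1, transitional and airway epithelium lists. Another test, scaling, filter or unit took the medians of TREM2 and TYROBP signalling (highest 0.048), growth factor axes (0.029), platelets (0.28) and airway epithelium (0.91) above 0. Depth limits only the genes of few counts, such as *Il17a* and *Myoz1*.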
